A study of Mus musculus with 16 samples.

Results

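The 10 genes described here mark T lymphocytes that live within the intestinal epithelium: Cd3e, Cd3g, Trdc, Cd8a, Cd8b1, Itgae, Ccr9, Gzma, Gzmb and Cd160. They were chosen by symbol as known genes of these cells, and all 10 were found once each among the 46078 genes of the count table. RNA sequencing was performed on ileum mucosa of 16 C57Bl/6 mice in 4 groups of 4, male Slfn3KO, male WT, female Slfn3KO and female WT, to compare mice that lack Slfn3 with WT mice in each sex. The Slfn3KO mice were genotyped from tail DNA, so the deletion is not limited to a cell type of the gut, and the labels name no treatment of either genotype. The labels give an age of 8 weeks for all 16 mice, whereas the methods of the study give an older range. Each mouse is 1 library, numbered 1 to 4 within its group.

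Intraepithelial lymphocytes sit between the absorptive cells of the villus, in direct contact with the epithelium and close to the gut lumen. Most of them carry CD8, often as a pair of alpha chains without the beta chain, and in the mouse a large part of them use the gamma delta form of the T cell receptor in place of the alpha beta form. They enter the small intestine under the chemokine CCL25, are held there by integrin alpha E binding to E-cadherin, depend on interleukin 15 from the epithelium, and hold ready-made granzymes with which they kill infected or damaged cells.

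Total counts per library ranged from 20823279 to 30813117. Levels are given as CPM, counts scaled to library size with TMM factors, and a gene with 3 counts would stand at 0.100 to 0.151 CPM. Slfn3 itself was scarcely detected, with 0 to 2 counts in the 8 Slfn3KO libraries and 0 to 19 counts in the 8 WT libraries, so this check of the genotype labels rests on few counts. In 4 of the 8 WT libraries, male WT 3 and 4 and female WT 3 and 4, the sex transcripts went against the label: Xist stood at 437 and 401 CPM in male WT 3 and 4 and at 0.124 and 0 CPM in female WT 3 and 4, and Ddx3y was high only in the latter pair among these 4. These libraries were kept under their labels, and each genotype comparison is also given without them, which leaves 2 WT libraries of each labelled sex. In bulk RNA, fewer lymphocytes and less RNA per lymphocyte cannot be told apart.

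In mm10 coordinates of the count table, Cd3e (9:44998743-45009590) and Cd3g (9:44969572-44980431) are neighbours on the minus strand of chromosome 9, and Cd8b1 (6:71322836-71337477) and Cd8a (6:71373427-71379171) are neighbours on the plus strand of chromosome 6. Ccr9 lies on chromosome 9 (123678439 to 123783457, plus strand), Itgae on chromosome 11 (73090583 to 73147446, plus strand), Gzma on chromosome 13 (113093825 to 113100979, minus strand) and Cd160 on chromosome 3 (96798763 to 96829351, minus strand). Gzmb (56258856 to 56262260, minus strand) and Trdc (54142851 to 54148868, plus strand) are both on chromosome 14. The counts cover exons. Of 50-base stretches of the annotated transcripts, 6.00% of those of Cd8b1, 2.13% of those of Ccr9 and 1.61% of those of Trdc also occur in transcripts of other genes, so the counts of these 3 genes are slightly less certain, and 269 exon bases of Ccr9 overlap another gene on the same strand. No such stretch was found in the other 7 genes.

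The promoters of the granzymes, the CD3 epsilon chain and the CD8 alpha chain are printed because these genes varied together across the mice, as shown further on. Windows of 250 bases before to 50 bases after the RefSeq start site (GRCm38.p6) were found for 7 of the 10 genes, in 8 windows because Cd160 has 2 start sites. Capitals mark matches, on either strand, to letters that transcription factors of cytotoxic lymphocytes are known to recognise: TGTGGT for RUNX factors, TCACAC for T-box factors, CAGGAAG for ETS factors and TTCNNNGAA for STAT factors. None of the matches printed here overlap one another. The sequences read 5′ to 3′ along each gene:
Gzma, chr13:113100932-113101231, minus strand: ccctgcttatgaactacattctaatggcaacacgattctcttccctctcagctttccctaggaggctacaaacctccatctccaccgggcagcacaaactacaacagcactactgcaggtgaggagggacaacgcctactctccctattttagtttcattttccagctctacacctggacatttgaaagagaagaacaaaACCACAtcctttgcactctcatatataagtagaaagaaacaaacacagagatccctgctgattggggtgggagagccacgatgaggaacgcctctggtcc
Gzmb, chr14:56262285-56262584, minus strand: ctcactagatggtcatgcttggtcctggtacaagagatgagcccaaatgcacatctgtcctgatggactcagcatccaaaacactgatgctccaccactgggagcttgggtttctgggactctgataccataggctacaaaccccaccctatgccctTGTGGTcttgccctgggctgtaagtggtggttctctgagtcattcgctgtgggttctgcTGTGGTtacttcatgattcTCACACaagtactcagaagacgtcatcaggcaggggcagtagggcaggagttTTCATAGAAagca
Cd3e, chr9:45009562-45009861, minus strand: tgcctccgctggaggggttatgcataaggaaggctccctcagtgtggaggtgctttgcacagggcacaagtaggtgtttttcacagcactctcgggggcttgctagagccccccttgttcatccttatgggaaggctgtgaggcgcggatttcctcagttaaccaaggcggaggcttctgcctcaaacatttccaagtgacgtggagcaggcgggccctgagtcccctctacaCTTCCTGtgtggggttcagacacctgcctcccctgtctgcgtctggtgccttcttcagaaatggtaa
Cd8a, chr6:71373177-71373476, plus strand: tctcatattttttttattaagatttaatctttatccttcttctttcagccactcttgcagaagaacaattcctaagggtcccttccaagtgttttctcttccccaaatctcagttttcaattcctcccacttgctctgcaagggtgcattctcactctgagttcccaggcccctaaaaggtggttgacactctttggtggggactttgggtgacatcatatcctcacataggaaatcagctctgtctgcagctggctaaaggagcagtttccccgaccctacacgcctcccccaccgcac
Gzma held 1 RUNX match, 50 bases before the start site. Gzmb held 2 RUNX matches, 93 and 34 bases before the start site, 1 T-box match 15 bases before it and 1 STAT match 37 bases after it. Gzmb as counted ends at 56262260, outside this window, so the RefSeq start site lies upstream of the counted gene. Cd3e held 1 ETS match, 17 bases before the start site, and the windows of Cd8a, Cd3g and Ccr9 held none of the 4 letter strings. Over the 8 windows, RUNX letters were found in 4, T-box letters in 3, and ETS and STAT letters in 2 each. Both windows of Cd160 held RUNX and T-box letters. Counted by gene, RUNX letters were found in 3 of 7, and T-box, ETS and STAT letters in 2 of 7 each. Over all 32851 promoter windows of the same length, 16.8% held the RUNX letters, 14.5% the T-box letters, 13.3% the ETS letters and 8.30% the STAT letters.

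Compared per length, as reads per kilobase of exon scaled to library size (RPKM), Gzma was the highest of the 10 genes, with 125 ± 58.0 RPKM (SD, n = 16). Granzyme A and granzyme B are serine proteases of cytotoxic granules, and Gzmb followed with 31.7 ± 14.3 RPKM. Next came the CD3 gamma chain Cd3g with 18.1 ± 7.02 RPKM, Cd8a with 10.1 ± 4.96 RPKM, Cd3e with 9.08 ± 3.99 RPKM and the integrin alpha E gene Itgae with 5.79 ± 2.68 RPKM. The lowest 4 were Cd160 with 2.76 ± 1.17 RPKM, Cd8b1 with 2.60 ± 1.13 RPKM, Trdc with 1.84 ± 0.764 RPKM and Ccr9 with 1.64 ± 0.711 RPKM. Down to Itgae and Cd160 the order held in all 16 libraries except between Cd8a and Cd3e, where Cd8a was the higher in 13 of 16. Among the lowest 4 the neighbours did not differ beyond their spread: Cd160 was above Cd8b1 in 11 of 16 libraries, Cd8b1 above Trdc in 14 of 16, and Trdc above Ccr9 in 11 of 16.

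The level of the lymphocyte genes varied widely from mouse to mouse and did so within each genotype. The summed CPM of the 10 genes ran from 89.7 in female WT 2 to 559 in female WT 1, a 6.24-fold range between a pair of mice of the same group. Female WT 1 had the highest level of the 16 libraries for 9 of the 10 genes, and female WT 2 the lowest for 7. Male Slfn3KO 1 was lowest for Cd160 and Ccr9 and was among the lowest 3 libraries for all 10 genes, as was female WT 2. The male WT mice lay close together, with summed levels of 364, 367, 324 and 261 CPM. The male Slfn3KO mice had 124, 347, 219 and 255 CPM, and the female Slfn3KO mice 128, 193, 362 and 272 CPM.

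Cd3e and Cd3g encode invariant chains of the T cell receptor complex and are therefore carried by alpha beta and gamma delta T cells alike. Cd3e stood at 6.67, 16.6, 9.57 and 18.5 CPM in male Slfn3KO 1 to 4 and at 13.1, 14.3, 15.4 and 13.01 CPM in male WT 1 to 4. In the female groups it stood at 6.28, 9.40, 16.98 and 10.3 CPM in Slfn3KO 1 to 4 and at 28.3, 4.99, 15.04 and 10.1 CPM in WT 1 to 4. The groups overlapped in both sexes, and the highest and the lowest of the 16 values were both in female WT. Cd3g ran from 8.85 CPM in female WT 2 to 39.8 CPM in female WT 1 and had group means between 15.9 and 21.8 CPM.

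Trdc encodes the constant region of the delta chain and marks gamma delta T cells. It stood at 4.54, 9.05, 5.61 and 5.46 CPM in male Slfn3KO 1 to 4 and at 7.24, 7.75, 6.70 and 7.56 CPM in male WT 1 to 4. In female Slfn3KO 1 to 4 it was 4.77, 6.58, 9.48 and 10.6 CPM, and in female WT 1 to 4 it was 15.4, 4.11, 4.06 and 5.13 CPM. The female WT value of 15.4 CPM lay far above the other 3 mice of that group, which were below 3 of the 4 female Slfn3KO mice.

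Cd8a and Cd8b1 encode the chains of the CD8 coreceptor. Cd8a stood at 15.6, 43.5, 24.8 and 31.4 CPM in male Slfn3KO 1 to 4 and at 36.4, 32.8, 37.4 and 32.2 CPM in male WT 1 to 4. It was 14.02, 23.7, 46.2 and 28.6 CPM in female Slfn3KO 1 to 4 and 75.7, 10.7, 32.9 and 20.02 CPM in female WT 1 to 4. The male Slfn3KO values lay on both sides of the male WT values, and the female WT values spanned the whole range of the series. Cd8b1 was far lower per length and had its highest values in another place: 7.07 CPM in male WT 3 and 6.13 CPM in female WT 3, against 5.52 CPM in female WT 1 and 1.78 CPM in female WT 2.

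Itgae encodes integrin alpha E, which binds E-cadherin on epithelial cells. It ranged from 12.7 to 32.2 CPM in male Slfn3KO, 27.3 to 31.8 CPM in male WT, 14.5 to 37.6 CPM in female Slfn3KO and 10.7 to 61.7 CPM in female WT. Ccr9 encodes the receptor for the chemokine CCL25, which directs lymphocytes to the small intestine. Ccr9 stood at 2.63, 6.74, 5.54 and 4.70 CPM in male Slfn3KO 1 to 4 and at 7.14, 11.05, 11.5 and 8.31 CPM in male WT 1 to 4. In the females it was 5.98, 6.30, 9.71 and 8.67 CPM in Slfn3KO 1 to 4 and 16.1, 3.13, 8.58 and 7.62 CPM in WT 1 to 4. All 4 male Slfn3KO mice were thus below all 4 male WT mice, whereas the female groups overlapped.

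Gzma stood at 47.2, 149, 96.1 and 99.1 CPM in male Slfn3KO 1 to 4, at 161, 169, 121 and 98.8 CPM in male WT 1 to 4, at 46.3, 78.2, 147 and 117 CPM in female Slfn3KO 1 to 4, and at 220, 29.0, 110 and 71.0 CPM in female WT 1 to 4. The granzyme A values overlapped in both sexes. Gzmb stood at 19.5, 54.8, 32.9 and 39.1 CPM in male Slfn3KO 1 to 4 and at 78.4, 68.1, 58.8 and 41.9 CPM in male WT 1 to 4. In the females it was 19.6, 26.8, 57.5 and 40.6 CPM in Slfn3KO 1 to 4 and 79.8, 12.7, 45.4 and 43.4 CPM in WT 1 to 4. The male groups of Gzmb overlapped through male Slfn3KO 2 alone, which lay above male WT 4. Cd160, a receptor of the immunoglobulin family on cytotoxic lymphocytes, stood at 3.57, 7.54, 4.77 and 7.65 CPM in male Slfn3KO 1 to 4 and at 8.48, 8.38, 7.96 and 7.81 CPM in male WT 1 to 4. The male groups of Cd160 did not overlap, though the highest Slfn3KO mouse and the lowest WT mouse were close together. In the females Cd160 ranged from 5.08 to 9.91 CPM in Slfn3KO and from 3.81 to 16.7 CPM in WT.

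**Figure D1:**
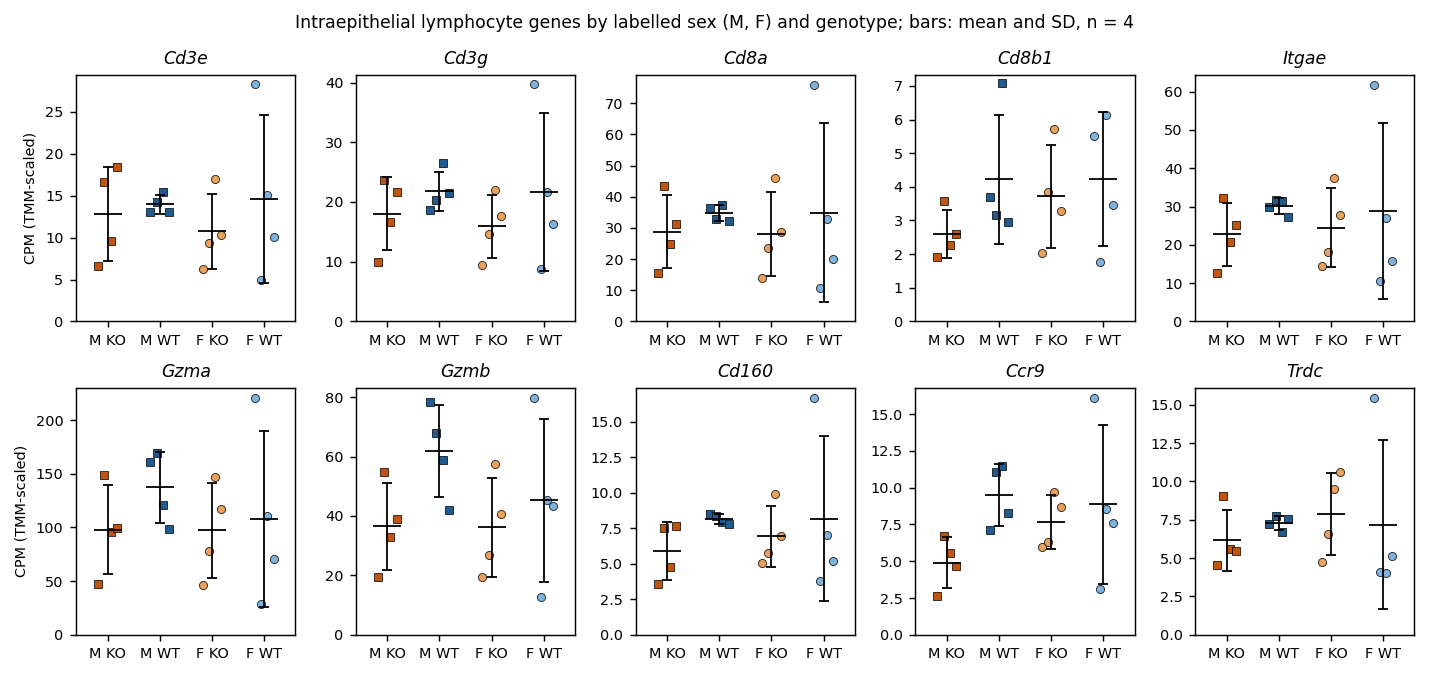
CPM of each of the 10 genes (y axis, own scale for each gene) in the 16 libraries by labelled sex (M, F) and genotype; points are mice and bars are mean and SD, n = 4. The female WT group has the widest spread of the 4 groups for all 10 genes, and the male WT group the narrowest for Cd3e, Cd3g, Cd8a, Itgae, Gzma, Cd160 and Trdc.

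In the pooled comparison of 8 Slfn3KO with 8 WT mice, all 10 genes had lower fitted levels in Slfn3KO, by log2 fold changes of -0.06 to -0.58, and none passed the test. A gene was called where edgeR's quasi-likelihood test gave a Benjamini-Hochberg adjusted p under 0.05 and the levels differed 1.5-fold or more. Of all 14822 genes tested 0 (0%) were called, and DESeq2 called 54 (0.364%), 0 of them among the 10. At an unadjusted p under 0.05, 1770 genes (11.9%) were counted, 1052 of them (7.1%) lower in Slfn3KO, and 0 of the 10 were among them. DESeq2 gave 1 of the 10, Ccr9, an unadjusted p under 0.05, as it did 7.97% of all genes in this direction. The median log2 fold change of the 10 genes was -0.34, against -0.0037 over all tested genes, of which 50.7% were lower.

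Ccr9 had the largest pooled difference, -0.58 (SE 0.284, 95% interval -1.18 to 0.03), with an edgeR adjusted p of 0.435. Gzmb followed with -0.54 (SE 0.317, 95% interval -1.22 to 0.13), with an edgeR adjusted p of 0.523. Each interval reaches 0, so these data allow a difference of more than 2-fold as well as none. Between these 2 genes and Trdc came Cd8b1 at -0.44, Cd3g and Cd160 at -0.36 each, Gzma and Itgae at -0.32 each, Cd8a at -0.29 and Cd3e at -0.28. Trdc differed least, by -0.06 (SE 0.274, 95% interval -0.64 to 0.52). The order depended on the libraries kept: without the 4 WT libraries at odds with their sex label Gzmb had the largest value, -0.69, followed by Ccr9 at -0.62, and Cd8b1 the smallest, -0.19, with Trdc at -0.29. In that fit all 10 genes were lower, as were 47.2% of all genes, the median was -0.47, and 0 of the 10 had an unadjusted p under 0.05 in edgeR, where 468 of 15093 genes (3.1%) were lower at that p. Without female WT 1 the pooled median was -0.07 and 8 of the 10 genes were lower. Without female WT 2, and likewise without female Slfn3KO 3, Gzmb, Cd8b1 and Ccr9 had an unadjusted p under 0.05. The share of all genes at that p is not given for these fits, so this count cannot be set against it. The 8 Slfn3KO and 8 WT libraries overlapped for all 10 genes, and 0.027% of all genes did not overlap.

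In the males all 10 genes were lower in Slfn3KO, with a median log2 fold change of -0.44 against -0.0016 over all 14124 tested genes, of which 50.4% were lower. The homing receptor Ccr9 fell short of a call with a log2 fold change of -0.95 (SE 0.299, 95% interval -1.63 to -0.27), an unadjusted p of 0.0114 and an edgeR adjusted p of 0.925. Gzmb had a log2 fold change of -0.76 (SE 0.309, 95% interval -1.46 to -0.05), an unadjusted p of 0.0385 and an edgeR adjusted p of 0.925. These 2 were the only ones of the 10 with an unadjusted p under 0.05, which 279 of all genes (1.98%) reached in this direction. No gene of the table (0%) was called by edgeR, where 542 had an unadjusted p under 0.05, and DESeq2 called 14 (0.0991%), 0 of them among the 10.

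The male groups did not overlap for Cd160 and Ccr9, a pattern that 334 of the 14124 genes (2.36%) showed. The least male difference was that of Cd3e, -0.13 (SE 0.295, 95% interval -0.80 to 0.54), and the other CD3 chain, Cd3g, was at -0.28. Without male Slfn3KO 4 the Cd3e value was -0.35. Gzmb and Ccr9 thus had larger values than Cd3e and Cd3g, though the difference between these values was not tested. The highest-to-lowest ratio within male WT ran from 1.08 for Cd160 to 2.40 for Cd8b1, with 1.604 for Ccr9, 1.71 for Gzma and 1.87 for Gzmb. Within male Slfn3KO it ran from 1.87 for Cd8b1 to 3.16 for Gzma, and it was wider than in male WT for 9 of the 10 genes, Cd8b1 being the exception. Without male WT 3 and 4 the values were -0.89 for Ccr9 and -0.99 for Gzmb, the median was -0.42, and these 2 genes had an unadjusted p under 0.05, as did 547 of 14551 genes (3.76%) in this direction, while Cd8b1 went from -0.71 to -0.40. With each male mouse left out in turn, Ccr9 had an unadjusted p under 0.05 in all 8 fits. Gzmb lost it in 6 of the 8, without Slfn3KO 1, 3 or 4 or WT 1, 2 or 3, with values between -0.55 and -0.78, and also with all 4 groups in one fit. The male median was -0.24 without Slfn3KO 1, where 9 of the 10 genes were lower, and -0.62 without Slfn3KO 2, where 8 of the 10 had an unadjusted p under 0.05. The share of all genes at that p is not given for the fits without 1 mouse. These counts therefore cannot be set against it, and the 10 genes varied together.

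In the females 9 of the 10 genes were lower in Slfn3KO and Trdc was higher, with a median log2 fold change of -0.23 against -0.0098 over all 14064 tested genes, of which 51.1% were lower. Cd3g and Cd3e had the largest differences, -0.44 each, with 95% intervals from -1.42 to 0.54 and from -1.58 to 0.70. Trdc had a log2 fold change of 0.14 (SE 0.479, 95% interval -0.95 to 1.23). No gene was called (0%) by edgeR, where 2410 had an unadjusted p under 0.05 and 1204 of these (8.56%) were lower, against 0 of the 10. DESeq2 called 506 genes (3.6%), 0 of the 10. Female Slfn3KO and WT mice overlapped for all 10 genes, whereas 7.89% of genes did not overlap.

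One mouse decided the direction in the females. Without female WT 1 the median log2 fold change of the 10 genes was 0.31, 1 of the 10 was lower and Trdc, at 0.83, had an unadjusted p under 0.05, and without female WT 2 it was -0.49. Those are the mice with the highest and the lowest levels of the series. For the fit without female WT 1 the share of all genes with an unadjusted p under 0.05 is not given. Without female WT 3 and 4, the pair at odds with their sex label, the median was -0.46.

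The difference between the labelled sexes in the genotype effect was tested as an interaction, female minus male. It was 0.74 for Ccr9 (SE 0.549, 95% interval -0.43 to 1.92, edgeR adjusted p = 0.565), the largest of the 10, and -0.31 for Cd3e (SE 0.624, 95% interval -1.65 to 1.02). None of the 10 had an unadjusted p under 0.05, and their median was 0.29, which was -0.028 without WT libraries 3 and 4. Without female WT 1 the median was 0.85, Ccr9 was at 1.204 and Trdc at 1.07, and these 2 genes had an unadjusted p under 0.05, while without female WT 2 the median was 0.01 and Ccr9 was at 0.46. The share of all genes at that p is not given for these fits. Of the 14822 genes 0 (0%) were called by edgeR, 1639 (11.1%) had an unadjusted p under 0.05, and DESeq2 called 19 (0.128%). The lower Ccr9 level in male Slfn3KO was therefore not shown to be particular to males. Without the 4 WT libraries at odds with their label edgeR called 359 genes, 0 of the 10, and the value for Ccr9 was 0.57.

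**Figure D2:**
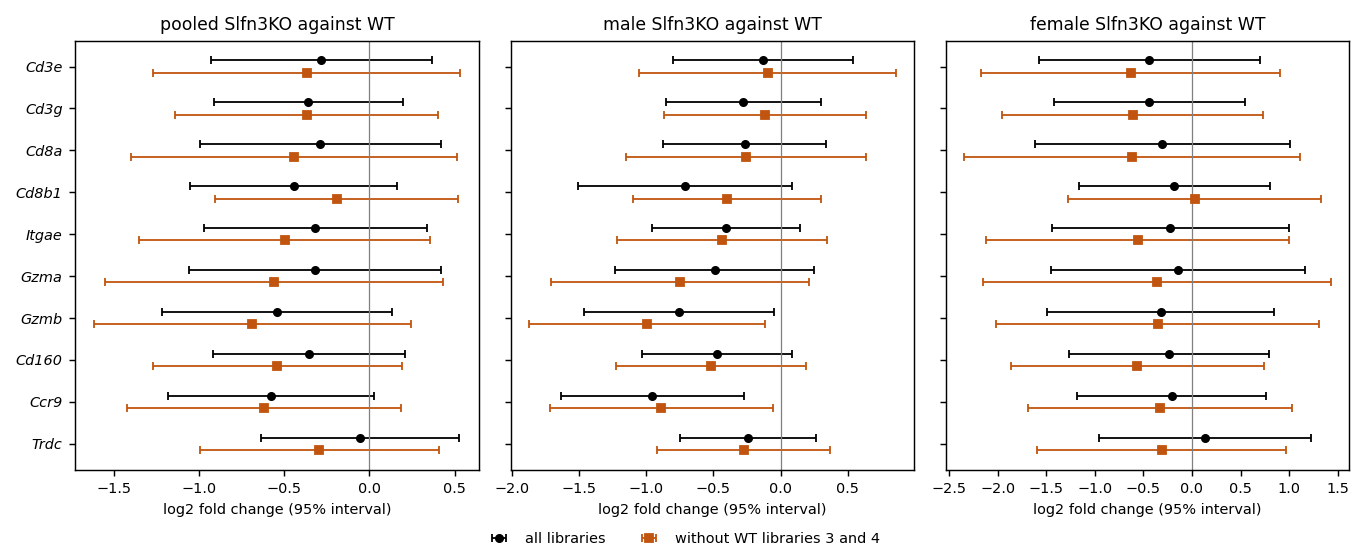
Log2 fold change of Slfn3KO against WT (x axis, each panel with its own range) for the 10 genes in the pooled, male and female comparisons; points are edgeR estimates, bars are 95% intervals, black circles use all libraries and orange squares leave out WT libraries 3 and 4. In all libraries every pooled and male point lies below 0, and only the male intervals of Gzmb and Ccr9 do not reach 0.

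The 10 genes varied together across the mice. Over the 45 pairs of genes, Pearson's r of log2 CPM over the 16 libraries had a median of 0.84, from 0.47 for Cd8b1 with Trdc to 0.98 for Cd8a with Itgae. After each group's mean was taken out the median was 0.90, and without female WT 1 and female WT 2, the libraries farthest from the mean of the 10 genes, it was 0.72. These correlations are descriptions over libraries that share the same mice for every gene. The pair of a coreceptor chain and an epithelial integrin thus kept the closest relation, and Trdc and Cd8b1 the loosest, with median r to the other genes of 0.71 and 0.74.

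Ratios between genes within a library remove the shared part of this variation. The log2 ratio of Cd8a to Cd3e was 1.25 ± 0.194 (SD, n = 16), whereas the log2 level of Cd8a itself had an SD of 0.70. The ratio of Cd3g to Cd3e had an SD of 0.17 and that of Itgae to Cd3e an SD of 0.23, so the 4 genes of the receptor, coreceptor and integrin moved nearly in step. Gzma to Cd3e had an SD of 0.34 and Gzmb to Cd3e one of 0.36. Ccr9 to Cd3e varied more, with an SD of 0.47, and its group means were -1.35 in male Slfn3KO, -0.58 in male WT, -0.43 in female Slfn3KO and -0.67 in female WT. Male Slfn3KO 4 had the lowest ratio to Cd3e of the 16 libraries for Cd3g, Cd8a, Cd8b1, Itgae, Gzma, Gzmb, Cd160 and Ccr9.

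The delta chain departed from the CD3 chain in particular mice. The log2 ratio of Trdc to Cd3e was lowest, at -1.89, in female WT 3, and highest, at 0.04, in female Slfn3KO 4, with an SD of 0.49. Trdc was also set against Trac, the constant region of the alpha chain and the mark of alpha beta T cells. This log2 ratio was -1.83 in male WT 3, -1.97 in female WT 3 and -1.34 in female WT 4. In the other WT mice it was between -0.50 and -0.31, within the range of -0.88 to 0.37 in the Slfn3KO mice. The log2 ratio of Cd8b1 to Cd8a ran from -3.78 in female WT 1, the mouse with the most Cd8a, to -2.40 in male WT 3 and -2.43 in female WT 3. Male WT 3 and female WT 3 were thus the libraries with the most beta chain relative to alpha chain and the least delta chain relative to alpha beta receptor.

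**Figure D3:**
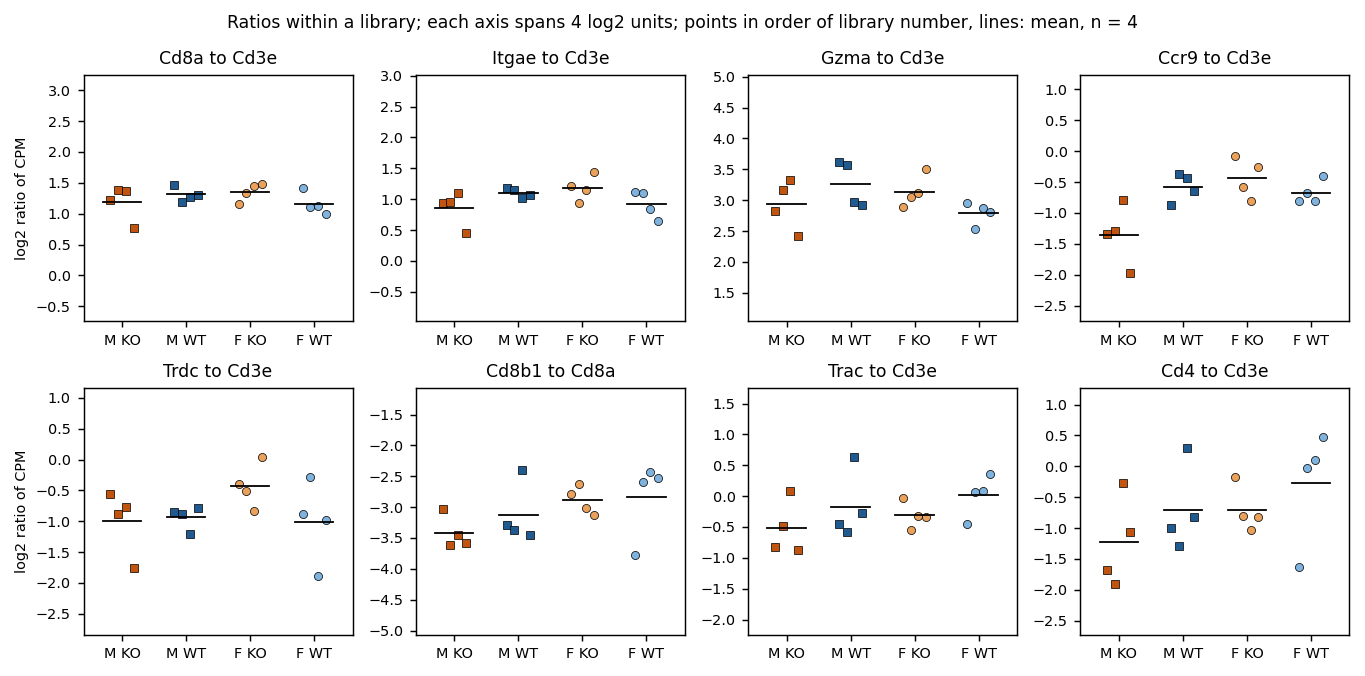
Log2 ratios of CPM within a library (y axis, each spanning 4 log2 units) by labelled sex and genotype; points are mice in order of library number and lines are means, n = 4. The ratios of Cd8a and Itgae to Cd3e vary little, while Trdc to Cd3e, Cd8b1 to Cd8a, Trac to Cd3e and Cd4 to Cd3e differ between mice of one group, male WT 3 being highest of its group for the last 3.

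Those 2 libraries are also among the 3 with the most B cell follicle RNA. The 12 markers of B cells and follicles summed to 1073 CPM in male WT 3, 696 CPM in female WT 4 and 525 CPM in female WT 3, against 5.75 to 221 CPM in the other WT mice. They ranged from 3.17 to 153 CPM in male Slfn3KO, 5.75 to 1073 CPM in male WT, 10.8 to 64.6 CPM in female Slfn3KO and 23.0 to 696 CPM in female WT. All 12 were lower in Slfn3KO, with a median log2 fold change of -2.99, all 12 had an unadjusted p under 0.05, and 0 were called by edgeR. Without WT libraries 3 and 4 the pooled median of 0.16 held opposite values in the sexes: all 12 were higher in male Slfn3KO, with a median of 3.32, and all 12 lower in female Slfn3KO, with a median of -1.46.

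Taken as a set, the 10 intraepithelial genes did not follow these B cell markers. The mean of their z scores had a median r of 0.00 with the 12 markers over the 16 libraries, and female WT 1, the highest mouse for the 10 genes, had only 23.0 CPM of B cell and follicle RNA. In female WT 2, the lowest mouse for the 10 genes, these markers summed to 153 CPM. The 10 genes summed to 364 and 367 CPM in male WT 1 and 2, where the B cell and follicle markers were at 7.98 and 5.75 CPM. Cd8b1 differed from the set, with its highest levels in male WT 3, at 7.07 CPM, and female WT 3, at 6.13 CPM. In female WT 4 it stood at 3.46 CPM. The part of follicle content in the genotype values of the 10 genes was not tested.

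**Figure D4:**
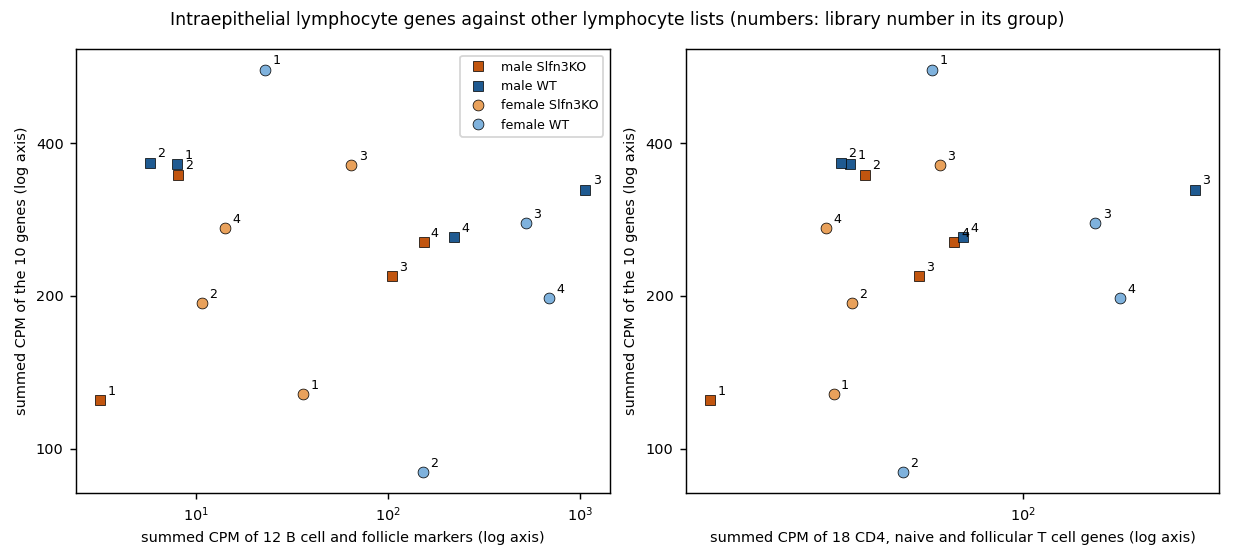
Summed CPM of the 10 genes (y axis, log scale) against summed CPM of B cell and follicle markers (left) and of CD4, naive and follicular T cell genes (right, both log scale) in 16 libraries, numbered within their group. Female WT 1 is highest for the 10 genes with few B cell transcripts, and male WT 3 and female WT 3 and 4 stand to the right in both panels.

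**Figure D5:**
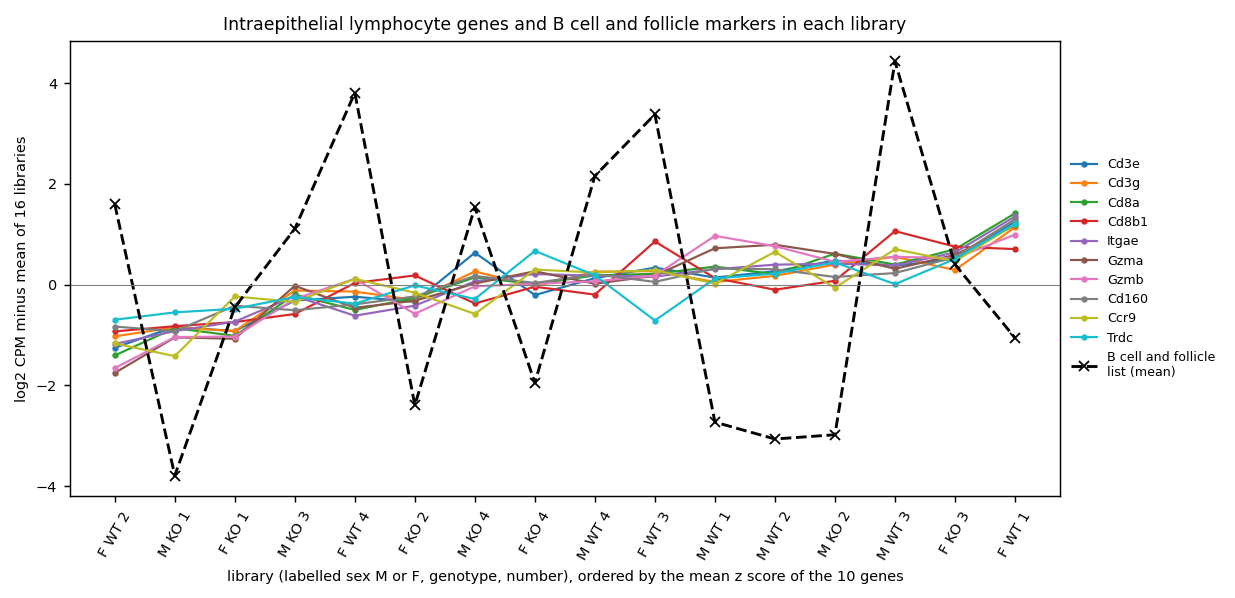
Log2 CPM minus the mean of 16 libraries (y axis) for each of the 10 genes and for the mean of the B cell and follicle list (dashed), with libraries ordered by the mean z score of the 10 genes (x axis). The 10 lines rise together from female WT 2 to female WT 1 and the dashed line does not.

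The other genes of the T cell receptor and its signalling were lower in Slfn3KO as well in the pooled comparison. By the median they were lower by more than the 10 genes themselves while all libraries were kept and by less without WT libraries 3 and 4. Without those libraries the sexes differed. The median was -0.16 in males, against -0.42 for the 10 genes, and -0.51 in females, against -0.46. Of 17 genes in this list 14 were matched and tested, all 14 were lower, 8 at an unadjusted p under 0.05, with a median log2 fold change of -0.57 and 0 called by edgeR. Lck, the kinase that starts receptor signalling, had -0.74 (SE 0.246, edgeR adjusted p = 0.327), the zeta chain Cd247 -0.70, Cd3d -0.60 and Trac -0.63. Cd2, an adhesion receptor, had the largest value, -2.06 (SE 0.630, edgeR adjusted p = 0.327), and the kinase Txk the smallest, -0.36. Without WT libraries 3 and 4 the median was -0.34, Cd2 was at -0.019, from 1.04 in males and -0.86 in females, and 0 of the 14 had an unadjusted p under 0.05. The summed CPM of the 14 genes was highest in male WT 3, with 224 CPM, followed by female WT 1 with 191 CPM.

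The genes of CD4, naive and follicular T cells were highest in the libraries with the most B cell RNA. Of 18 genes 16 were tested, all 16 were lower in Slfn3KO with a median log2 fold change of -1.24, 11 at an unadjusted p under 0.05, and 0 were called by edgeR. The follicular homing receptor Cxcr5 had the largest value, -3.15, and the interleukin 7 receptor Il7r the smallest, -0.09. Without WT libraries 3 and 4 the pooled median was 0.04, from medians of 0.39 in males and -0.34 in females. Their summed level ran from 16.8 CPM in male Slfn3KO 1 to 267 CPM in male WT 3. Among the 16, the median r with the 10 genes was 0.20, against 0.80 for the T cell receptor list.

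Of the 30 cytotoxic and tissue-resident lymphocyte genes 28 were tested, 23 of them lower and 5 higher in Slfn3KO, with a median log2 fold change of -0.26, 3 lower and 2 higher at an unadjusted p under 0.05, and 0 called by edgeR. The activation and residency marker Cd69 was the lowest, at -1.46 (SE 0.427, edgeR adjusted p = 0.327), and -0.31 without WT libraries 3 and 4. Hopx, a homeodomain gene also active in epithelium, was the highest, at 0.45. The median without those libraries was -0.27. The list's median r with the 10 genes was 0.73, from -0.47 for Hopx to 0.97 for Cd244a.

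Over all genes tested, the 10 with levels most like those of the intraepithelial genes, by Pearson's r with the mean of their z scores over the 16 libraries, were Rgs1, Cd244a, Prkch, Cd7, Ccl4, Nkg7, Cd200r1, Cd96, Trgv2 and Itgad. Their r ran from 0.98 for Rgs1 to 0.95 for Itgad, and without female WT 1 and 2 from 0.90 for Cd96 to 0.96 for Rgs1. Rgs1 encodes a regulator of G protein signalling in lymphocytes, Nkg7 a protein of cytotoxic granules, Ccl4 a chemokine of activated lymphocytes and Trgv2 a variable segment of the gamma chain. All 10 had a lower fitted level in Slfn3KO, from -0.08 for Cd96 to -0.72 for Ccl4, with edgeR adjusted p from 0.440 to 0.935. These genes were picked for their likeness over the same libraries, so the shared direction largely follows from the choice and adds no evidence. Cd244a stood at 3.85 to 15.4 CPM and Cd7 at 10.4 to 71.8 CPM over the 16 libraries.

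The genes through which the epithelium draws in, holds and keeps alive intraepithelial lymphocytes were described as a further list. All 14 of its genes were tested, 10 were lower and 4 higher in Slfn3KO, with a median log2 fold change of -0.12 and 0 called by edgeR. Ccl25, the ligand of CCR9, had 0.05 (SE 0.139, 95% interval -0.24 to 0.34) and 379 to 817 CPM over the libraries, and Cdh1, which encodes the E-cadherin that binds integrin alpha E, had -0.04 (SE 0.0849, 95% interval -0.22 to 0.14). Il15 had -0.11 (SE 0.187, 95% interval -0.50 to 0.29) and its receptor chain Il15ra -0.0030. Il18 was the only 1 of the 14 with an unadjusted p under 0.05, at -0.39 (SE 0.183, edgeR adjusted p = 0.414), and it was at -0.72 in males and -0.072 in females. The butyrophilin-like genes, some of which maintain gamma delta lymphocytes of the intestine, had -0.30 for Btnl1, -0.40 for Btnl2, -0.13 for Btnl4 and -0.24 for Btnl6. Btnl2 was at -0.72 in females and -0.060 in males. Without WT libraries 3 and 4 Btnl1 was at -0.50 with an unadjusted p of 0.0338 and an edgeR adjusted p of 0.761.

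Markers of other lymphocytes and of dendritic cells were low beside the 10 genes. Of the natural killer and innate lymphoid list 5 of 10 genes were tested. The natural killer receptors Ncr1 and Klra8 reached at most 0.408 and 0.106 CPM, and Il22 at most 0.612 CPM, each with 0 counts in some libraries. The dendritic cell genes Xcr1, Clec9a and Siglech reached at most 1.70, 1.496 and 1.24 CPM. These marker genes were named after their values were seen. Epithelial markers summed to 19137 to 53240 CPM and distal small intestine markers to 3952 to 19372 CPM, while proximal small intestine markers ran from 33.1 CPM in female WT 3 to 1690 CPM in female WT 1. By these sums female WT 1 was highest both for the intraepithelial genes and for proximal and epithelial markers, and lowest for distal markers within its group. Lct made up 1376 CPM of its proximal sum. Not every marker went this way. Female WT 1 had the lowest level of the 16 libraries for the proximal gene Cybrd1, at 0.653 CPM, and the epithelial gene Krt19, at 1660 CPM. These genes were also named after their values were seen. The 10 genes had a median r of 0.42 with the epithelial markers, 0.21 with the proximal markers, -0.27 with the distal markers and -0.48 with smooth muscle and stroma markers. The part of intestinal position and of tissue makeup in the spread of the 10 genes was not tested.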

How the data were processed

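RNA of ileum mucosa was sequenced by the authors as single reads over 2 lanes from stranded libraries, trimmed with cutadapt, aligned with STAR to mm10 and deposited as 1 table of raw counts per gene, with exon lengths. The methods name HTSeq for counting, while the file header and the submitters' processing notes name featureCounts (1.4.6), with reverse-stranded counting in the header; the notes also name DESeq2 (1.22.2). Nothing was normalized before deposit. Gene identifiers were given symbols from GENCODE M21 (45143 of 46078 matched); 3 gamma chain constant genes found no match.

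Samples were grouped by title. Genes passing edgeR's filterByExpr over the 4 groups were tested with edgeR 4.0.16 in R 4.3.3 (TMM factors, robust quasi-likelihood F test, two-sided, Benjamini-Hochberg adjustment over all tested genes). The pooled fit had labelled sex as a covariate, each sex was also fitted alone, and the interaction gave female minus male. A call needed an adjusted p under 0.05 and 1.5-fold or more. Standard errors were obtained from the fold change and its F value. Levels are CPM, log2 CPM has a prior count of 2, and RPKM uses the deposited exon length. Each mouse is 1 library; depth of 20823279 to 30813117 counts gives floors of 3 counts that cover counting error only. No pair of replicates agreed within sampling noise.

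The same replicate number marks different mice. In the males, deviations of same-numbered libraries had positive correlations (0.229, 0.317, 0.518 and 0.138). Slfn3KO 1 with WT 2, at 0.232, and Slfn3KO 4 with WT 3, at 0.207, were above the same-numbered pairs of those Slfn3KO mice. The numbers were therefore not shown to pair the male mice. In the females same-numbered libraries did not deviate together. The main fits held no pairing, and the replicate block was an alternative for both sexes.

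Alternatives were RLE factors, DESeq2 1.42.0, no filter, a minimum of 10 counts per mouse, leaving out WT libraries 3 and 4, the replicate block, no covariate, all 4 groups in one fit, an unadjusted p and each mouse left out in turn. The fits were tested on simulated data. The 10 genes and all lists were chosen with earlier results of these data known. Named genes are the 10 themselves, any gene of the T cell receptor and epithelial partner lists, the lowest and highest gene of the other lists, and the 10 genes most like them by Pearson's r. Promoters and start sites are from RefSeq (GRCm38.p6).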

Additional observations from a re-analysis of the deposited data

Results flagged for a closer look

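Of 40 sets of 4 values, the 10 genes in each of the 4 groups, 1 held a library far from the rest. Trdc stood at 15.4 CPM in female WT 1, and the other 3 female WT mice lay between 4.06 and 5.13 CPM. The gap to the nearest value took 0.906 of the group's range, above Dixon's critical value for 4 samples. Chance alone is expected to mark about 1 in 20 such sets. Female WT 1 was also the highest library for 8 of the other genes and for the summed proximal small intestine markers, and the part of these in the Trdc value was not tested.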

How the results depend on the processing

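At an adjusted p under 0.05 none of the 10 genes was called in the 4 comparisons under any alternative run; their smallest adjusted p in edgeR or DESeq2 was 0.240, for Ccr9 in the pooled comparison without female WT 2. DESeq2 called more of all genes than edgeR's 0: 54 in the pooled comparison, 14 in males, 506 in females and 19 in the interaction. An unadjusted p gave 1770 genes in the pooled comparison, and leaving out WT libraries 3 and 4 gave 359 in the interaction. Other normalization and filter settings changed no sign among the 10 genes. Leaving out WT libraries 3 and 4 turned the female log2 fold change of Cd8b1 to 0.028 and of Trdc to -0.31, and the interaction of Itgae to -0.11, of Cd160 to -0.033 and of Trdc to -0.022. In the female libraries same-numbered mice did not deviate together (correlations of -0.362, 0.143, -0.337 and -0.113). The main fits took the numbers as pairs in neither sex. The replicate block changed no call. It turned the pooled Trdc value to 0.017, the female values to 0.018 for Cd8a, 0.057 for Itgae and 0.17 for Gzma, and the interaction to 0.010 for Cd3e, 0.064 for Cd3g and 0.38 for Cd8a, and it put the median of the 10 genes in females at -0.02. The cause of these shifts was not tested. With each mouse left out in turn, the pooled values ran from -0.45 to 0.041 for Cd8a and from -0.16 to 0.24 for Trdc, and the male value of Cd3e from -0.35 to 0.084. The female values ran from -0.75 to 0.10 for Cd3e, -0.70 to 0.031 for Cd3g, -0.66 to 0.41 for Cd8a, -0.47 to 0.050 for Cd8b1, -0.51 to 0.47 for Itgae, -0.46 to 0.48 for Gzma, -0.64 to 0.10 for Gzmb, -0.47 to 0.38 for Cd160, -0.49 to 0.25 for Ccr9 and -0.062 to 0.83 for Trdc. The interaction ran from -0.64 to 0.22 for Cd3e, -0.43 to 0.30 for Cd3g, -0.40 to 0.68 for Cd8a, -0.11 to 0.87 for Itgae and -0.0041 to 0.85 for Cd160. The upper ends came without female WT 1 except for the male value of Cd3e, without male Slfn3KO 1, and the female value of Cd8b1, without female WT 3. In all, the sign changed in 1 of 70 pooled values, 0 of 70 male, 5 of 70 female and 6 of 60 interaction values under the alternatives that keep all replicates or leave out the 4 libraries together. At 73 counts or more for Ccr9 and 42 or more for Cd8b1 in every library, counting error was small beside the spread between mice, and the number of mice limits the intervals.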

Other observations

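Tissue makeup and position along the intestine varied over the same 16 libraries. Smooth muscle and stroma markers summed to 13.4 CPM in female WT 1, the highest mouse for the intraepithelial genes, and to 129 CPM in female Slfn3KO 2. Of these 10 genes 8 were higher in Slfn3KO, with a median log2 fold change of 0.47, which was 1.23 without WT libraries 3 and 4, and 0 were called by edgeR in either fit. With all libraries, 7 of the 10 were lower in males alone, with a median of -0.39, and 7 of 9 tested were higher in females, with a median of 1.06. Without WT libraries 3 and 4 all 10 were higher in each sex, with medians of 1.07 in males and 1.41 in females. The smooth muscle calponin gene Cnn1 had the highest value, 0.99, which was 2.09 without those libraries, and the endothelial gene Pecam1 the lowest, -0.83, which was 0.35 without them. Among the 6 proximal markers lactase, Lct, was lowest at -1.68 and the iron exporter Slc40a1 highest at 0.84, with a median of -0.46. With all libraries the sexes went opposite ways. In males 5 of the 6 were higher, with a median of 0.22 and Lct at 0.67. In females 4 of the 6 were lower, with a median of -1.14 and Lct at -4.04. The interaction for Lct was -4.71 (SE 2.69, edgeR adjusted p = 0.485), and the list as a whole was not tested for it. Without WT libraries 3 and 4 the pooled values were -3.24, 2.08 and -0.999. In males 3 of the 6 were then higher and 3 lower, with a median of 0.0024. In females 4 of the 6 were lower, with a median of -1.71. All 6 distal markers had lower fitted values, with a median of -0.24, but 5 of the 6 had higher ones without WT libraries 3 and 4, with a median of 0.12, and 6 of 10 epithelial markers were lower, with a median of -0.10 and 0 called.

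Among the natural killer and innate lymphoid genes, Il17re, a receptor chain for interleukin 17C that epithelial cells also carry, was higher in Slfn3KO by a log2 fold change of 0.77 (SE 0.197, edgeR adjusted p = 0.327), and by 0.65 without WT libraries 3 and 4, with an r of -0.60 to the intraepithelial genes.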
